A study of Mus musculus with 7 samples.

Results

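The translation initiation and elongation factor genes of the liver were compared between WT and whole-body TET1 KO mice. Members were taken by symbol, as every gene whose name begins with Eif or Eef followed by a digit and which had at least 10 counts in every library. Of 77 symbols with such a name, 68 met the minimum, out of 14754 genes tested. They lie on 21 chromosomes and held between 14 and 59841 reads in a library. Of the 68, 4 are annotated as pseudogenes (Eif1-ps1, Eif1-ps2, Eif3s6-ps1 and Eif4a-ps4). The 9 symbols that missed the minimum included Eef1a2, the eEF1A copy of muscle and nerve, with at most 1 read in a library, and Eif5a2 with at most 9. The others were Eef1akmt3 with at most 4 reads, Eif3s6-ps2 with at most 18, Eif5al3-ps with at most 16, Eif3s6-ps4 with at most 1, and Eif1-ps3, Eif2c5 and Eif4e1b with 0.

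RNA was taken from the livers of male mice, 3 WT and 4 TET1 KO, all given a high-fat diet (HFD) for 16 weeks. The labels give the knockout only as TET-1-TKO, a whole-body deletion, and name no allele for the sequenced mice. The study's methods list a Tet1tm1.1Jae line on a mixed B6;129S4 background, compared with littermates, and a second whole-body strain made with Actb-Cre, with the HFD begun at 8 weeks of age and 60% of its calories from fat. Libraries are named below by genotype and replicate number.

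Protein synthesis begins when eIF2 carries the initiator methionyl-tRNA to the small ribosomal subunit, while the eIF4 proteins bind the mRNA cap and unwind the leader and eIF3 holds the complex together. After the start codon is found with the help of eIF1, eIF1A and eIF5, eIF5B joins the large subunit, and eEF1 and eEF2 then deliver each aminoacyl-tRNA and move the ribosome along. Known points of restraint are the phosphorylation of eIF2 by kinases that sense stress, and the capture of eIF4E by the 4E-binding proteins when mTORC1 is inactive. The liver makes most plasma proteins, so that protein synthesis is one of its main tasks. Some of the mRNAs, like those of ribosomal proteins, are known to begin with a run of pyrimidines (the 5′ terminal oligopyrimidine or TOP motif), through which mTORC1 sets their translation.

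Because the reads report mRNA and not protein synthesis, the start of the transcript is the sequence feature that bears on this control. The RefSeq table of transcript starts (GRCm38.p6) held 65 entries for 50 of the genes. The first 30 transcribed bases were read in the sense of the transcript. They were searched for a C followed by at least 4 bases that are C or T, beginning within the first 10 bases. Such a run was present in 14 of the 65 entries (21.5%) and in 5503 of all 32851 entries (16.8%). Of the 9 genes listed below as TOP mRNAs, 5 had an entry, and the annotated start of 1 of them (Eif3f) held such a run. The starts with the longest runs, those of Eif2s3y (12 bases), Eif2s3x and Eif3f (11 bases each), are shown with that of Eif3l, whose run of 9 bases is matched in length by 1 start of Eif4enif1, as examples of the feature in genes of eIF2 and eIF3, each 5′ to 3′ with the run in capitals:
Eif2s3x: CTTTTCTCTCCgagcaagatggctgggggt
Eif2s3y: aCTTCCTTCTTTCgtgagcaagatggcggg
Eif3f: CTCTCTTTCTCggcaagatggcttctccgg
Eif3l: tccgCTCTCTCCCacgggcttctggagcgc
The windows lie at chrX:94212622-94212651 on the minus strand, chrY:1010595-1010624, chr7:108934415-108934444 and chr15:79075223-79075252 on the plus strand. A match describes the letters at the annotated start and is not a measured TOP site.

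The libraries held between 15005277 and 22746138 counts, and the translation factor genes took between 0.617% (KO 1) and 0.840% (WT 2) of them. Tet1 itself had 1, 4 and 1 counts in WT and 2, 1, 4 and 1 in TET1 KO livers (exact two-sided permutation test, p = 1.0, smallest possible 0.0286), so its level was too low to check the labels. The 8 hepatocyte markers summed to between 62480 and 84629 CPM (counts scaled to a common library size by TMM) in every library. Over the 68 genes, WT 2 was the highest library in 24 and the lowest in 17, and KO 1 was the highest in 16 and the lowest in 28. The same 2 libraries had the lowest and highest share of counts from mitochondrial genome genes, 7.25% in WT 2 and 14.4% in KO 1, against 8.78% to 10.9% in the other 5. In bulk liver, a change in the RNA per cell cannot be told apart from a change in the number of cells of a type.

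No translation factor gene passed the threshold between genotypes in edgeR, and 3 did in DESeq2. None of the 68 was called by the edgeR quasi-likelihood test at an adjusted p under 0.05, where 2.02% of all genes tested were called. At an adjusted p under 0.1, 3 were called (4.41%), against 11.3% of all genes: Eef1g and Eif4e3 were higher and Eif2ak3 was lower in TET1 KO. The same 3 were the only ones called by DESeq2 at 0.05, where 9.88% of the genes with an adjusted p were called. At an unadjusted p under 0.05, 10 genes were higher, with 13.6% of all genes as background, and 8 were lower, with 12.7%. Together these made 26.5% of the 68 and 26.3% of all genes, so the share was close to the background. The counts depended on which mice were included, as did those of all genes. Without WT 2 they dropped to 2 higher and 2 lower, 2.94% each (all genes 6.96% and 6.91%). Without WT 3 they were 4 and 4, 5.88% each (9.91% and 11.3%). Without KO 1, KO 2 or KO 3 the higher genes were 5, 6 and 5 (10.9%, 11.2% and 10% of all genes). The lower genes were then 7 each time, 10.3% (11%, 11.6% and 10.7%). They rose to 12 without WT 1 and without KO 4, 17.6% each (14.3% and 14.2% of all genes), with 8 and 9 higher (14.4% and 15.1%). Scaling by library size alone, without TMM, changed the split to 4 higher and 14 lower, with 8.87% and 18.3% of all genes.

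The differences were small and went both ways. The log2 fold change of TET1 KO over WT was positive for 34 genes and negative for 34, with a median of -0.003, and the median over all genes tested was 0.012. With scaling by library size alone these medians were -0.10 and -0.08. It ran from -0.70 (Eif2ak3) to 1.32 (Eif4ebp3), and 1 of the 68 genes differed by more than 1 on the log2 scale (1.47%, against 6.45% of all genes). The median size of a difference was 0.185 and its median standard error was 0.153. Every TET1 KO value lay above every WT value in 9 genes, with 11.7% of all genes as background, and below in 5, with 10.8%. The 9 were Eef1g, Eef1d, Eif4e3, Eif5b, Eif1b, Eif3g, Eif3h, Eif3j2 and Eif3k, and the 5 were Eif2ak3, Eif2ak4, Eif2d, Eif2s1 and Eif4a-ps4. The 5 (7.35% of the 68) became 20 without WT 1 (29.4%, against 20.3% of all genes) and 14 without KO 4 (20.6%, against 16.8%). With scaling by library size alone, 5 lay higher without overlap (7.35%, against 7.46% of all genes) and 11 lower (16.2%, against 15.2%).

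**Figure D1:**
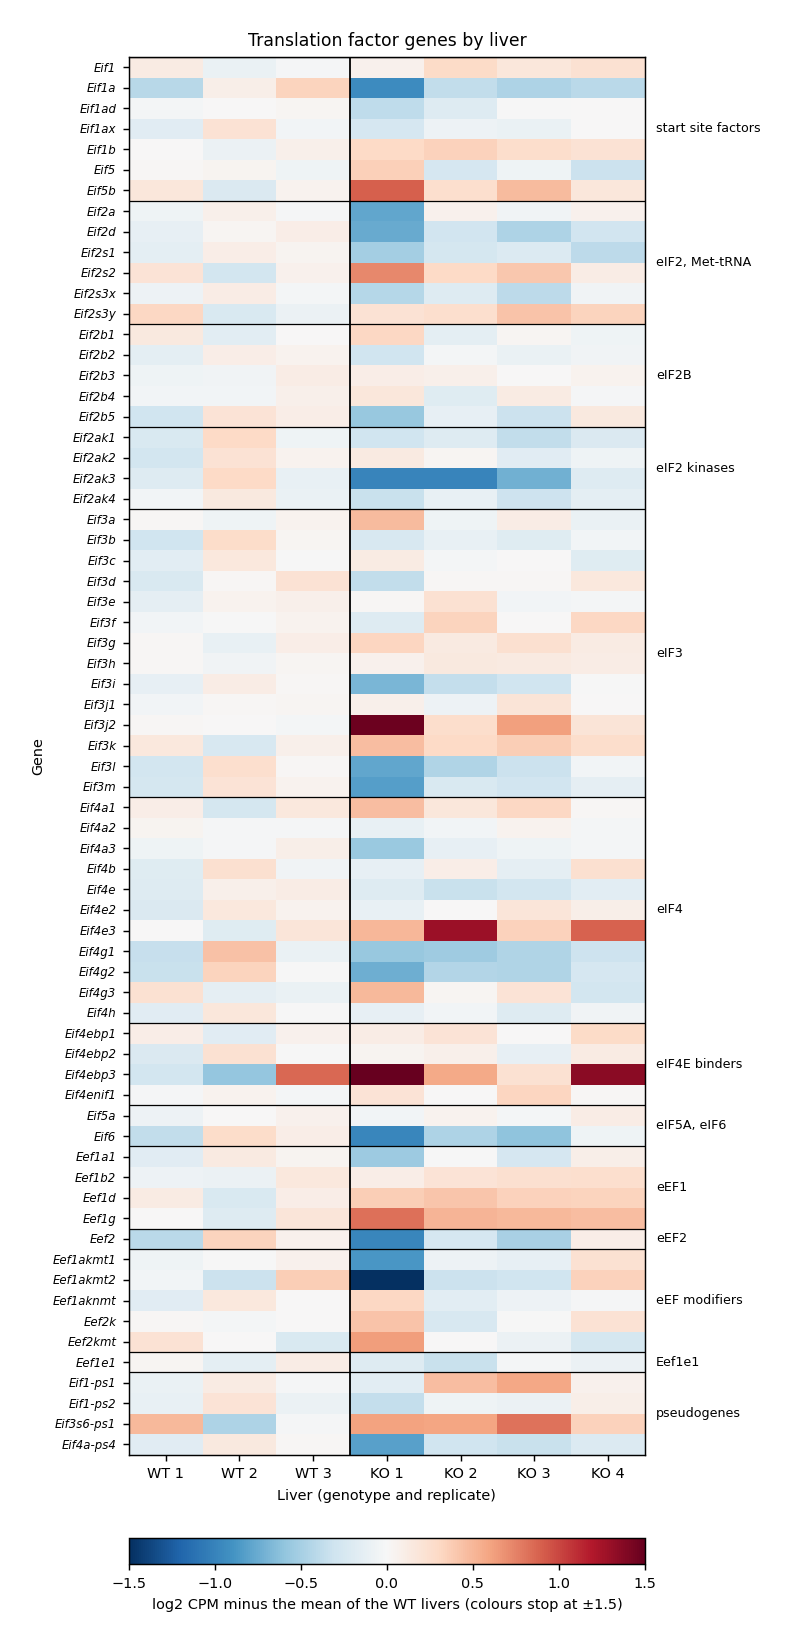
Each row is 1 of the 68 genes, ordered by role, and each column is 1 liver. Colour gives log2 CPM minus the mean of the 3 WT livers, red for higher and blue for lower. KO 1 is the lowest library in 28 genes and the highest in 16.

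**Figure D2:**
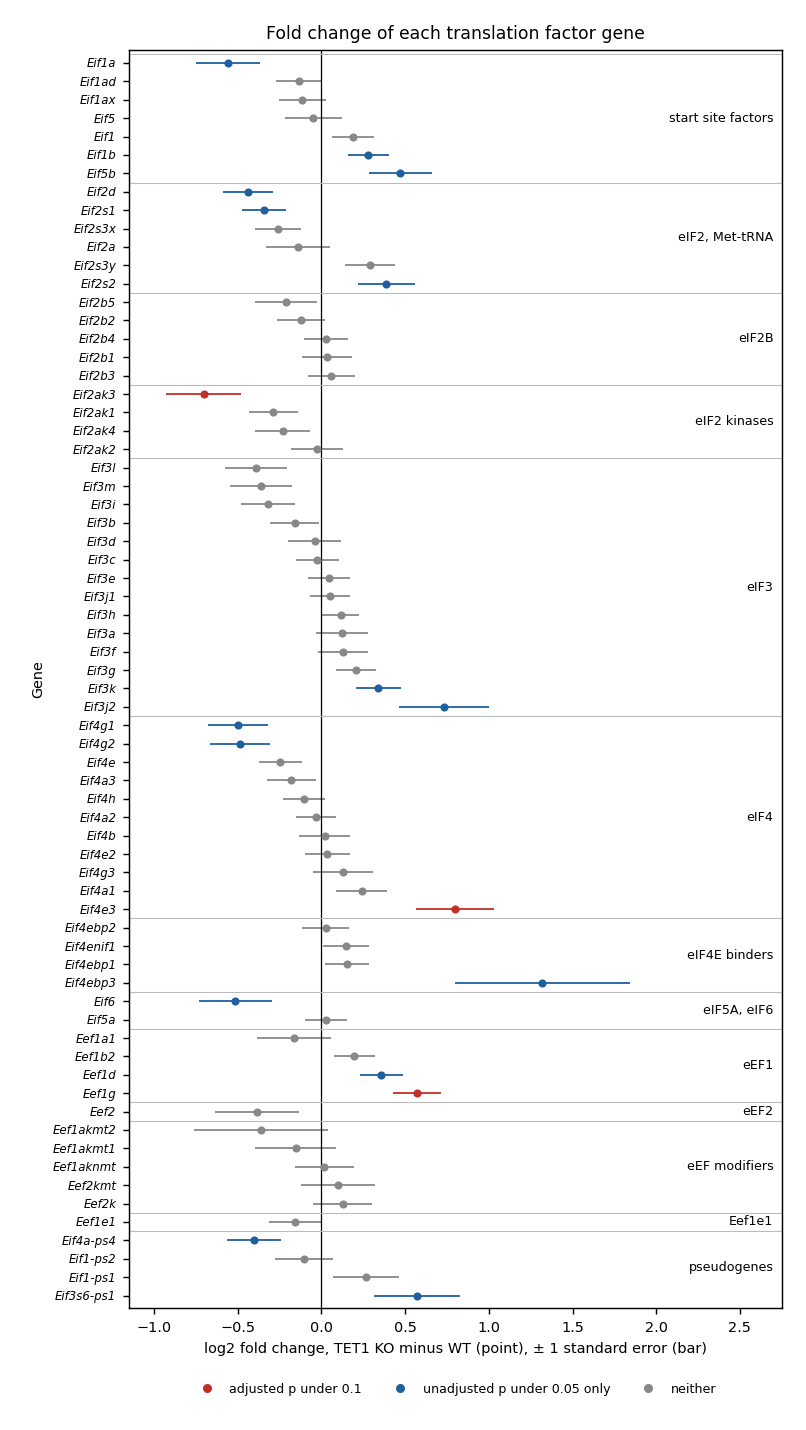
Points are the log2 fold changes of TET1 KO over WT from edgeR, bars are 1 standard error on either side, and rows are grouped by role. Red marks the 3 genes with an adjusted p under 0.1, blue the others with an unadjusted p under 0.05. The points fall on both sides of 0 within most groups.

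The factors differed widely in level. Per kilobase of exon (GENCODE M1 lengths, 65 of the 68 genes), Eef1a1, which carries aminoacyl-tRNA to the ribosome, was the most abundant at 912 CPM per kilobase in WT and 814 in TET1 KO. Eef2, the translocase, followed at 221 and 170, then Eif5a at 116 and 118 and Eif4ebp2 at 100.02 and 102 CPM per kilobase. The lowest were Eef1aknmt at 0.853 and 0.864 and Eif2ak4 at 0.949 and 0.809. Eef1a1 alone gave between 24.7% (KO 1) and 32.2% (KO 4) of the reads of all 68 genes.

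The eEF1 complex contains eEF1A, which delivers tRNA, and eEF1B, a complex of several subunits through which eEF1A is reloaded with GTP. The eEF1B gamma subunit gene Eef1g (chr19:8967041-8978180, GRCm38.p6) had 56.6, 49.2 and 63.9 CPM in WT and 99.9, 80.4, 78.8 and 77.2 in TET1 KO livers. The groups did not overlap, and KO 1 stood above the other 3 knockouts. Means were 56.6 ± 7.32 (SD, n = 3) and 84.1 ± 10.6 (SD, n = 4), a log2 fold change of 0.57 (SE 0.14, edgeR adjusted p = 0.0638). The adjusted p was 0.0131 with DESeq2 and 0.0493 without KO 4, and 0.269 without WT 2. The delta subunit gene Eef1d had 86.2, 67.7 and 84.8 CPM in WT and 102, 105, 101 and 99.4 in TET1 KO, again without overlap (log2 fold change 0.36, SE 0.13, edgeR adjusted p = 0.117). The beta subunit gene Eef1b2 had 103 to 122 CPM in WT and 117 to 130 in TET1 KO, with overlap.

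Neither Eef1a1 nor Eef2 separated the genotypes. Eef1a1 had 2009, 2479 and 2332 CPM in WT and 1553, 2264, 1899.7 and 2401 in TET1 KO, and the groups overlapped (log2 fold change -0.16, SE 0.22, edgeR adjusted p = 0.657). Leaving out 1 mouse moved the value between -0.05 without KO 1 and -0.26 without WT 1, with -0.10 without WT 2 and -0.25 without KO 4. The count ratio of Eef1g to Eef1a1 within a library was 0.0199 to 0.0282 in WT and 0.0322 to 0.0643 in TET1 KO, without overlap. Eef2 spread more between mice of a genotype than Eef1a1 (SD 0.423 and 0.240 on the log2 scale), with 509, 850 and 699 CPM in WT and 340, 566, 478 and 718 in TET1 KO. Its log2 fold change was -0.39 (SE 0.25, edgeR adjusted p = 0.344), and it was -0.21 without WT 2 and -0.22 without KO 1. Eef2k, the kinase that inactivates eEF2, had 8.86 to 9.19 CPM in WT and 7.67 to 12.2 in TET1 KO, a log2 fold change of 0.13 (SE 0.18) that was 0.01 without KO 1 and 0.21 without KO 2. The other 4 modifiers of elongation factors (Eef1akmt1, Eef1akmt2, Eef1aknmt and Eef2kmt, all methyltransferases) had no unadjusted p under 0.05. Eef1akmt2 had the lowest read count of the 68, 14 in KO 1. Eef1e1, a subunit of the multi-synthetase complex rather than an elongation factor, differed by -0.16 (SE 0.15).

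Among the eIF4 genes, the cap-binding homologue Eif4e3 (chr6:99621879-99692873) gave the largest difference after Eif4ebp3. It had 6.83, 6.01 and 7.72 CPM in WT and 9.63, 16.7, 8.69 and 12.7 in TET1 KO, which did not overlap. Each library held 139 to 274 reads of it. Means were 6.85 ± 0.857 (SD, n = 3) and 11.9 ± 3.60 (SD, n = 4), a log2 fold change of 0.80 (SE 0.23, edgeR adjusted p = 0.0808). The adjusted p was 0.0290 with DESeq2 and 0.326 without WT 2. Eif4e, the main cap-binding protein, had 31.0, 37.4 and 38.3 CPM in WT and 30.9, 28.1, 29.1 and 31.8 in TET1 KO (log2 fold change -0.25, SE 0.13, edgeR adjusted p = 0.242). The within-library ratio of Eif4e3 to Eif4e counts was 0.161 to 0.221 in WT and 0.298 to 0.594 in TET1 KO.

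The 3 eIF4G scaffold genes differed in sign. Eif4g3 had a log2 fold change of 0.13 (SE 0.18), with 88.7, 69.1 and 70.7 CPM in WT and 106, 77.0, 87.1 and 62.6 in TET1 KO, which overlapped. Against the mean of the WT livers on the log2 scale, KO 1 stood at 0.49. KO 2, KO 3 and KO 4 stood at 0.02, 0.20 and -0.27. In Eif4g1 and Eif4g2 the log2 fold changes were negative, and WT 2 stood far above the other livers. Eif4g1 had 215, 369 and 253 CPM in WT and 183, 189, 199 and 219 in TET1 KO. The 2 groups overlapped between WT 1 and KO 4. Its log2 fold change was -0.50 (SE 0.18, edgeR adjusted p = 0.122) and -0.25 without WT 2. Eif4g2, which drives cap-independent initiation, had 250.4, 398 and 312 CPM in WT and 189, 232, 229.5 and 263 in TET1 KO, and its log2 fold change of -0.49 (SE 0.18, edgeR adjusted p = 0.125) became -0.31 without WT 2. The other 6 eIF4 genes, which include the helicases Eif4a1, Eif4a2 and Eif4a3 and the helicase partners Eif4b and Eif4h, had no unadjusted p under 0.05.

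The genes of the eIF4E-binding proteins had positive log2 fold changes in all 4 cases, but that of Eif4ebp2 changed sign in 6 of 14 alternative fits, reaching -0.089 without WT 1 and -0.07 when libraries were scaled by size alone. Eif4ebp1, the insulin-responsive form, had 32.9, 27.1 and 32.1 CPM in WT and 33.0, 35.3, 30.8 and 37.3 in TET1 KO (log2 fold change 0.15, SE 0.13, and 0.06 without WT 2). Eif4ebp2, the form with the highest level of the 4, differed by 0.03 (SE 0.14). Eif4ebp3 varied more between mice than any other translation factor gene, with a within-genotype SD of 0.912 on the log2 scale against a median of 0.191. It had 4.43, 3.56 and 9.81 CPM in WT and 30.6, 8.02, 6.34 and 13.9 in TET1 KO. WT 3 lay inside the range of the knockouts, and KO 1 lay far above them. The log2 fold change was 1.32 (SE 0.53, edgeR adjusted p = 0.147) and 0.69 without KO 1.

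The kinases that phosphorylate eIF2 alpha each sense a different stress, and all 4 had negative log2 fold changes. In all 4 the highest liver was WT 2. Eif2ak3 (chr6:70844484-70905241) encodes PERK, the sensor of unfolded protein in the endoplasmic reticulum. It had 9.93, 14.1 and 10.6 CPM in WT and 5.69, 5.70, 6.90 and 9.92 in TET1 KO. The groups did not overlap, but KO 4 (9.92) reached almost to WT 1 (9.93). The means were 11.5 ± 2.23 (SD, n = 3) and 7.05 ± 1.99 (SD, n = 4), a log2 fold change of -0.70 (SE 0.22, edgeR adjusted p = 0.0949). The adjusted p was 0.0472 with DESeq2, 0.0343 without KO 4 and 0.369 without WT 2. Eif2ak4, which encodes the amino acid sensor GCN2, had 6.83, 7.83 and 6.56 CPM in WT and 5.57, 6.54, 5.67 and 6.35 in TET1 KO (log2 fold change -0.23, SE 0.16, edgeR adjusted p = 0.377). Eif2ak1, the haem-regulated kinase, differed by -0.29 (SE 0.15) and Eif2ak2, the kinase PKR activated by double-stranded RNA, by -0.03 (SE 0.16).

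The eIF2 subunits, which include the substrate of these kinases, had log2 fold changes of both signs. Eif2s1, the alpha subunit, had 28.6, 33.9 and 32.6 CPM in WT and 22.1, 26.2, 27.5 and 24.1 in TET1 KO. These did not overlap (log2 fold change -0.34, SE 0.13, edgeR adjusted p = 0.136). Eif2s2, the beta subunit, had 79.1, 57.0 and 71.9 CPM in WT and 113, 84.4, 90.7 and 74.0 in TET1 KO, so that KO 4 lay below WT 1 (log2 fold change 0.39, SE 0.17, edgeR adjusted p = 0.181, and 0.26 without WT 2). The gamma subunit comes from 2 genes, shown above for their pyrimidine-rich starts. The X-linked Eif2s3x differed by -0.26 (SE 0.14) and the Y-linked Eif2s3y by 0.29 (SE 0.15). The ratio of Eif2s3y to Eif2s3x counts was 1.14 to 1.88 in WT and 1.88 to 2.53 in TET1 KO, with a slight overlap.

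Eif2d, an alternative carrier of tRNA to the start codon, had 30.8, 34.3 and 36.0 CPM in WT and 19.8, 27.5, 24.4 and 27.6 in TET1 KO. The groups did not overlap, and KO 1 was the lowest (log2 fold change -0.44, SE 0.15, edgeR adjusted p = 0.103). The 5 subunits of eIF2B, the exchange factor that eIF2 phosphorylation blocks, had no unadjusted p under 0.05 and log2 fold changes between -0.21 and 0.06.

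**Figure D3:**
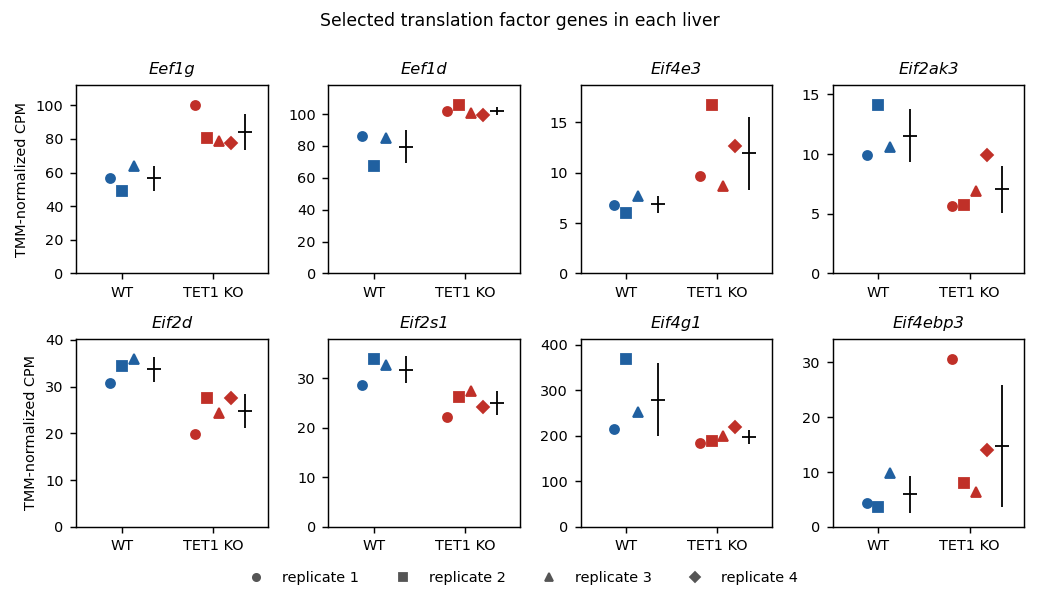
TMM-normalized CPM of 8 genes in each liver, with marker shape giving the replicate number and blue and red the genotype. Black bars show the mean and SD of each group. Eef1g, Eef1d, Eif4e3, Eif2ak3, Eif2d and Eif2s1 separate the genotypes, while Eif4g1 and Eif4ebp3 overlap and carry 1 high liver each.

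The factors that select the start codon gave 2 genes higher and 1 lower at an unadjusted p under 0.05, of 7, where 13.6% and 12.7% of all genes were. Eif5b, the GTPase that joins the subunits, had 161, 124 and 149 CPM in WT and 268, 171, 200.01 and 162 in TET1 KO (log2 fold change 0.47, SE 0.19, edgeR adjusted p = 0.148). The groups did not overlap, with KO 1 highest, and the log2 fold change was 0.30 without KO 1. Eif1b had 19.4, 18.1 and 20.4 CPM in WT and 23.6, 24.4, 23.1 and 22.5 in TET1 KO, a small difference with little spread (log2 fold change 0.28, SE 0.12, edgeR adjusted p = 0.178). Eif1a had 31.6, 44.6 and 52.9 CPM in WT and 21.9, 32.4, 30.6 and 31.9 in TET1 KO (log2 fold change -0.56, SE 0.19, edgeR adjusted p = 0.111). WT 1 lay among the knockouts.

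Most of the 14 eIF3 genes lay close to 0. Only Eif3k and Eif3j2 had an unadjusted p under 0.05, both higher in TET1 KO (14.3% of the 14, against 13.6% of all genes), and 4 genes did not overlap, all higher (28.6%, against 11.7%). Eif3k, a peripheral subunit, had 51.3, 38.9 and 48.5 CPM in WT and 63.3, 56.4, 59.1 and 55.0 in TET1 KO (log2 fold change 0.34, SE 0.13, edgeR adjusted p = 0.145, and 0.22 without WT 2). Eif3h had the smallest spread between mice of the same genotype, with an SD of 0.0397 on the log2 scale. Its log2 fold change was 0.12 (SE 0.11). Eif3f, shown above for its start, differed by 0.13 (SE 0.15). On the other side, Eif3l, which forms a pair with Eif3k in the complex, had 45.9, 65.9 and 56.2 CPM in WT and 32.2, 40.5, 44.4 and 53.7 in TET1 KO (log2 fold change -0.39, SE 0.18, edgeR adjusted p = 0.201). Eif3i, a WD-repeat subunit, had 48.2, 56.6 and 53.2 CPM in WT and 32.7, 41.0, 42.6 and 52.4 in TET1 KO (log2 fold change -0.32, SE 0.16, edgeR adjusted p = 0.223). In both genes KO 4 reached into the WT range and KO 1 was the lowest liver.

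Eif6, which keeps the large subunit from joining too early, had 27.2, 42.6 and 37.6 CPM in WT and 17.8, 25.5, 23.1 and 33.7 in TET1 KO (log2 fold change -0.51, SE 0.22, edgeR adjusted p = 0.164). KO 4 lay between WT 1 and WT 3. Eif5a, the hypusine-bearing factor that helps ribosomes past stalls, had 263 to 289 CPM in WT and 269 to 299 in TET1 KO. Its log2 fold change was 0.03 (SE 0.12), and -0.07 with scaling by size alone.

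Some members are named as copies or pseudogenes of others, and the counting could split reads between such pairs, since no setting for multiple alignments or strand was stated. Their sequences were not compared. Eif4a-ps4, a pseudogene named after the Eif4a helicase genes and paired here with Eif4a1, had more reads than Eif4a1 in 6 of the 7 libraries. It had 142, 177 and 162 CPM in WT and 90.4, 129.9, 126 and 138 in TET1 KO, without overlap (log2 fold change -0.40, SE 0.16, edgeR adjusted p = 0.148), and Eif4a1 differed by 0.24 (SE 0.15). Summed, the pair had 237, 251 and 261 CPM in WT and 212, 229.7, 236 and 227 in TET1 KO, still without overlap but closer together (log2 fold change -0.14, edgeR adjusted p = 0.475). The sum of Eif3e and Eif3s6-ps1 differed by 0.08 (edgeR adjusted p = 0.706), where the pseudogene alone, with 46 to 94 reads, gave 0.57 (SE 0.26, edgeR adjusted p = 0.189, and 0.34 without WT 2). The sum of Eif1 and its pseudogenes differed by 0.18 (edgeR adjusted p = 0.367).

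Eif3j1 and Eif3j2 encode the same loosely bound eIF3 subunit. Eif3j2 had 38.7, 38.5 and 37.7 CPM in WT and 106, 46.0, 58.6 and 43.9 in TET1 KO. The WT livers were almost equal, while KO 1 stood far above the other knockouts (log2 fold change 0.73, SE 0.27, edgeR adjusted p = 0.128, and 0.37 without KO 1). Eif3j1 had 37.6 to 45.3 CPM over all 7 livers and differed by 0.05 (SE 0.12). The sum differed by 0.43 (edgeR adjusted p = 0.192). The count ratio of Eif3j2 to Eif3j1 was 0.933 to 1.01 in WT and 1.11 to 2.54 in TET1 KO.

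**Figure D4:**
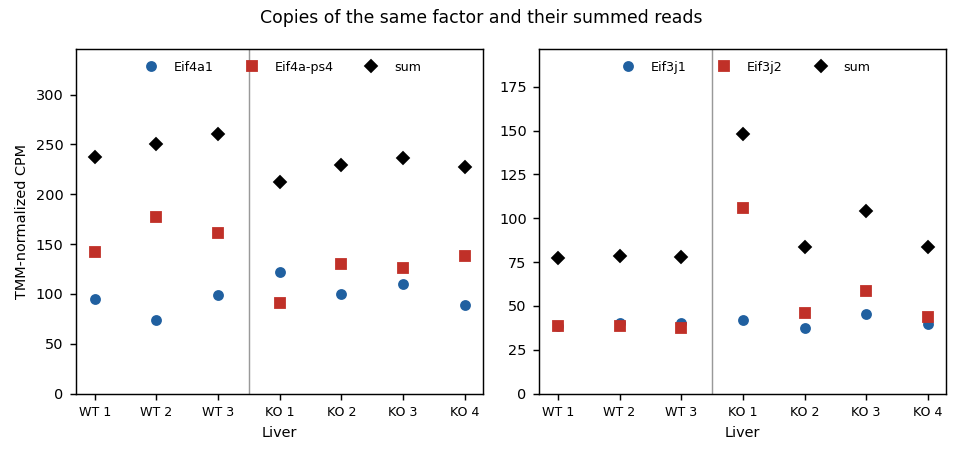
TMM-normalized CPM of 2 pairs taken as copies and of their summed reads in each liver, WT left of the line and TET1 KO right of it. The sum of Eif4a1 and Eif4a-ps4 runs from 212 to 261, and the high Eif3j sum in KO 1 (148) lies with Eif3j2 (106).

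The translation factor genes were set beside the ribosomal protein genes, which are known as TOP mRNAs, a group in which 9 of the 68 genes were also listed. Of 87 cytosolic ribosomal protein genes (Rpl and Rps symbols with their paralogs, and Fau), 5 were called higher and 0 lower by edgeR at an adjusted p under 0.05 (2.02% of all genes in either direction), and DESeq2 called 37 (42.5%, against 9.88% of all genes). At an unadjusted p under 0.05, 59 were higher (67.8%, against 13.6% of all genes) and 0 lower (against 12.7%), and their median log2 fold change was 0.51. Of the 9 translation factor genes listed as TOP mRNAs (Eef1a1, Eef1b2, Eef1d, Eef1g, Eef2, Eif3e, Eif3f, Eif3h and Eif4b), 2 were higher (22.2%) and 0 lower at that level, 7 had a positive log2 fold change, and the median was 0.115. The 78 mitochondrial ribosomal protein genes had a median of 0.146, with 15 higher (19.2%) and 2 lower (2.56%). The difference between these sets was not tested. Summed, the 68 genes had 6627, 7913 and 7441 CPM in WT and 6298, 7095, 6669 and 7468 in TET1 KO, which overlapped, and the cytosolic ribosomal protein genes had 4957 to 6379 CPM in WT and 7347 to 8774 in TET1 KO, which did not. Their lowest liver was WT 2 and their highest KO 1, the libraries with the lowest and highest mitochondrial share of counts (7.25% and 14.4%). With these 2 left aside the sums still did not overlap, at 6275 and 6379 CPM in WT and 7347 to 8099 in TET1 KO. The part of the mitochondrial share in this difference was not tested.

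**Figure D5:**
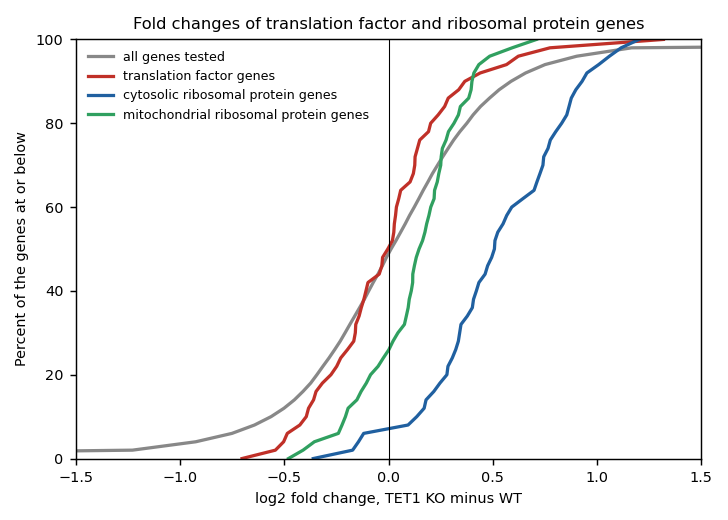
Cumulative percent of genes (y axis) at or below a log2 fold change of TET1 KO over WT (x axis) for 4 sets. The translation factor genes cross 50% near 0 (median -0.003) and climb more steeply than all genes, whereas the cytosolic ribosomal protein genes lie to the right (median 0.51).

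The other genes of the pathway were read from fixed lists. Of 14 further initiation proteins (among them poly(A)-binding proteins, Pdcd4 and the eIF4E kinases Mknk1 and Mknk2), none was called by edgeR, and 2 were higher (14.3%, against 13.6% of all genes) and 3 lower (21.4%, against 12.7%) at an unadjusted p under 0.05. DESeq2 called 2 of the 14 (14.3%, against 9.88%). Of 6 genes of termination and ribosome recycling, 0 were called by edgeR and 1 by DESeq2, and 2 were lower (33.3%) and 0 higher at that level. None of 9 genes that make hypusine on eIF5A or diphthamide on eEF2 had an unadjusted p under 0.05, and 1 of 9 mitochondrial translation factors did, lower in TET1 KO and called by DESeq2.

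Upstream, none of 17 mTORC1 pathway genes was called by edgeR or DESeq2, and 1 was higher (5.88%, against 13.6% of all genes) and 3 lower (17.6%, against 12.7%) at an unadjusted p under 0.05. The kinase gene Mtor had 34.5, 45.5 and 30.6 CPM in WT and 30.5, 26.3, 23.5 and 26.5 in TET1 KO (log2 fold change -0.47, SE 0.16, edgeR adjusted p = 0.108). WT 2 stood well above the other livers, and KO 1 (30.5) reached almost to WT 3 (30.6). Ddit4, an inhibitor of mTORC1 induced by stress, had 5.75, 5.38 and 5.57 CPM in WT and 2.38, 3.52, 3.93 and 5.14 in TET1 KO (log2 fold change -0.56, SE 0.24, edgeR adjusted p = 0.170). In both genes every knockout lay below every WT liver. Sesn2, another stress-induced inhibitor, differed by -0.08 (SE 0.23).

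Downstream of the eIF2 kinases, none of 12 tested genes of eIF2 phosphatases and ATF4 targets had an unadjusted p under 0.05. Atf4, whose translation rises when eIF2 is phosphorylated, had 68.7 to 97.4 CPM in WT and 82.2 to 111 in TET1 KO (log2 fold change 0.10, SE 0.16, edgeR adjusted p = 0.708). Asns, an ATF4 target for asparagine synthesis, had 5, 8 and 26 reads in WT and 8, 46, 20 and 5 in TET1 KO. Its log2 fold change was 0.87 (SE 0.83, edgeR adjusted p = 0.520), with KO 2 far above the other knockouts.

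Markers of other cell types were read beside these values. The 5 cholangiocyte markers summed to 29.7 to 37.8 CPM in WT and 46.1 to 67.9 in TET1 KO, without overlap, 4 of the 5 were higher at an unadjusted p under 0.05 (13.6% of all genes), and DESeq2 called 3 (9.88% of all genes). DESeq2 also called 3 of the 8 hepatocyte markers (37.5%) and 1 of 4 tested T and NK cell markers (25%), against 9.88% of all genes. Of the 8 hepatocyte markers, 5 had a positive and 3 a negative log2 fold change. At an unadjusted p under 0.05, 2 were higher (25%, against 13.6% of all genes) and 0 lower. In 3 every knockout lay above every WT liver (37.5%, against 11.7%), and in 0 below. The stellate cell and pericyte marker Rgs5 was called lower (log2 fold change -0.67, edgeR adjusted p = 0.0460), among 7 stellate markers whose sum overlapped (237 to 379 and 216 to 292 CPM). Of these 7, 6 had a negative log2 fold change, 3 were lower at an unadjusted p under 0.05 (12.7% of all genes) and 3 were called by DESeq2. The elastase gene Cela1, 1 of 8 genes listed for pancreas and muscle, was called higher (log2 fold change 1.85, edgeR adjusted p = 0.00913). Only 2 of these 8 genes could be tested. The pancreas genes Cpa1 and Pnlip and the muscle genes Acta1, Ckm and Myh4 had fewer than 10 reads in every library. The sums of the 8 Kupffer cell, 6 endothelial, 8 T and NK cell, 5 B cell, 6 neutrophil and monocyte, 5 erythroid and 6 proliferation markers overlapped between genotypes. The part of cell composition in the translation factor values was not tested.

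Among genes with a measured length and base composition, the log2 fold change followed GC content over all genes (Spearman's rho 0.276 across 12508 genes) but hardly over the translation factor genes (0.014 across 63). For exonic length, rho was -0.046 across 13469 genes and -0.18 across 65 translation factor genes. These are correlations across genes of the same 7 libraries, which are not independent replicates.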

How the data were processed

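Liver RNA-seq of 3 WT and 4 TET1 KO mice on HFD was analysed. The authors deposited 1 table of raw read counts per gene and mouse, not normalized. Per the labels, libraries were stranded, with poly(A) selection or rRNA depletion. The submitters' processing notes name Trimmomatic 0.36, GSNAP, featureCounts 1.5.3 and GRCm38. The strand setting and annotation are not given in the sources used here. Tables were joined by Ensembl identifier, since 26 symbols were spelt differently in 1 table.

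Genes were kept by filterByExpr in edgeR 4.0.16 (R 4.3.3), which left 14754 of 51426 genes holding at least 99.88% of each library's counts. Libraries were scaled by TMM and tested by the quasi-likelihood test (legacy = FALSE) without covariates. The call threshold was 0.05 on p-values adjusted by Benjamini-Hochberg over all genes tested. Each standard error is the fold change divided by the square root of F. CPM include the TMM factors, with a prior count of 2 on the log2 scale. Levels per length used GENCODE M1 exonic lengths, and coordinates and sequences are those of RefSeq GRCm38.p6. The test was also run on simulated counts, and the outcome is not reported here. DESeq2 1.42.0, other scalings and filters, leaving out each mouse, and a replicate block were alternatives. Named are the 20 genes with the smallest p plus 8 fixed ones, with others given as members of a described group. Genes and lists were chosen with earlier results of these data known. No source says whether samples with the same number share a litter or batch. Each library is a separate mouse by its label, and the smallest chi-square per degree of freedom between libraries of a genotype was 27.4, above sampling noise.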

Additional observations from a re-analysis of the deposited data

Results flagged for a closer look

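Of 28 named genes, 1 had a TET1 KO liver whose gap to the nearest of the other 3 passed Dixon's critical value for a group of 4. In Eef1g, KO 1 (99.9 CPM) stood above KO 2 (80.4 CPM), and this gap was 0.859 of the range of the 4 knockouts. Chance alone flags about 1 in 20 such groups. Without KO 1 the log2 fold change of Eef1g was 0.48 (edgeR adjusted p = 0.0918).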

How the results depend on the processing

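Of 392 values (28 named genes in 14 alternative fits), 372 kept their direction and side of the threshold, 9 newly passed it and 11 changed sign. The 26 genes other than Eif4ebp2 and Eif5a kept their direction in every fit. Eif4ebp2 turned to -0.0687 with library size only and -0.00347 with no filter on low counts, and ranged from -0.089 to 0.14 when 1 mouse was left out. Eif5a turned to -0.0661 with library size only, -0.000433 with no filter and -0.00287 with the replicate block, and ranged from -0.020 to 0.049 when 1 mouse was left out. DESeq2 called 2 genes higher and 1 lower. With library size only, 4 genes were higher and 14 lower at an unadjusted p under 0.05 (all genes 8.87% and 18.3%). Without overlap, 5 were higher (7.35%, against 7.46% of all genes) and 11 lower (16.2%, against 15.2%). The median was then -0.10 where that of all genes was -0.08. Leaving out 1 mouse gave 0 to 1 called higher and 0 to 1 lower (1 each without KO 4), and medians of -0.079 to 0.014. It gave 2 to 9 higher and 2 to 12 lower at an unadjusted p under 0.05 (all genes 6.96% to 15.1% and 6.91% to 14.3%). Without overlap, 8 to 13 were higher and 5 to 20 lower, which is 11.8% to 19.1% and 7.35% to 29.4% of the translation factor genes (all genes 12.6% to 20.3% and 12.9% to 20.3%). Whether shared replicate numbers pair the mice is not known. Deviations from the group means correlated at 0.21, -0.12 and -0.10 for numbers 1, 2 and 3, too few values to tell. WT 1 and KO 1 correlated best with each other, whereas WT 2 and WT 3 correlated best with a knockout of another number. A replicate block over numbers 1 to 3, which leaves out KO 4, called 1 gene higher (Eef1g) and 3 lower (Eif2ak3, Eif6 and Eif1a), with 9 higher and 14 lower at an unadjusted p under 0.05 (all genes 15.2% and 14.7%) and 12 higher and 14 lower without overlap (18.5% and 16.8%). The share of all genes called with the block, or with 1 mouse left out, is not given here. Those counts of called genes therefore have no background beside them. Summing copies or leaving out the 4 pseudogenes, both chosen after seeing the data, called none. The causes of these changes were not tested. Precision was limited by 3 and 4 mice, with a common biological coefficient of variation of 0.208 and a median standard error of 0.153 against a median difference of 0.185.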
